A study of Schizosaccharomyces pombe with 6 samples.

Results

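The 5S rRNA genes of fission yeast (Schizosaccharomyces pombe) that lie dispersed over the 3 chromosomes were examined for Rad52 signal on 6 genome tiling arrays, 3 from each of 2 strains. The RefSeq annotation of assembly ASM294v3 lists 36 of these genes under identifiers that start with SPRRNA. The 4 on chromosome I beyond 3.75 Mb were not analysed here, because array and assembly positions part there, which left 32 genes. Of these, 8 lie on chromosome I, 16 on chromosome II and 8 on chromosome III, with 20 on the plus strand and 12 on the minus strand. A gene was measured by the probes whose centre lay in it or within 500 bp of it, and its window was tested where at least 2 probes were usable. This held for 31 of the 32 genes; SPRRNA.30 had 1 usable probe and has no value.

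The first strain, labelled ∆rad3 cdc25-22 and called rad3-deleted below, lacks rad3, which encodes the checkpoint kinase related to human ATR. The second strain, labelled cdc25-22, keeps rad3. Both carry cdc25-22, a temperature-sensitive allele of the mitotic inducer phosphatase, so the strain set as control is itself a cell cycle mutant. All cells were held at 36.5 °C for 4 h and then returned to 25 °C in the presence of 6 mM hydroxyurea, an inhibitor of ribonucleotide reductase that depletes nucleotides during replication. On every array the green channel held the Rad52 immunoprecipitate (IP) and the red channel the input DNA of the same strain, so that a dye effect on a probe does not cancel. None of the 6 arrays held a control IP, and specific enrichment cannot be told apart from unspecific enrichment. The labels do not say whether the replicates came from separate cultures, and p-values measure the spread between these arrays only.

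5S rRNA is a small RNA of the large ribosomal subunit, where it joins as a particle with ribosomal proteins uL18 (Rpl5) and uL5 (Rpl11). Its genes are transcribed by RNA polymerase III: TFIIIA binds a control region inside the gene, TFIIIC joins it, and TFIIIB then positions the polymerase at the start site. In fission yeast a TATA element upstream of the start is part of most polymerase III promoters. Rad52 is a protein of homologous recombination that binds single-stranded DNA, and it gathers at places where recombination intermediates form.

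The sequences of the genes show what the array could and could not read. A 119-base 5S sequence, taken from SPRRNA.10, was located in each gene by alignment; it was identical in 20 of the 32 genes, and 10 more differed by 1 to 3 edits, with at least 97.48% identity. The remaining genes, SPRRNA.41 and SPRRNA.54, were far from it, with 83.19% and 76.47% identity, and RefSeq lists SPRRNA.41 as partial. SPRRNA.10 is shown because it stands for the identical copies, SPRRNA.40 as a near-identical copy with a large strain difference, and SPRRNA.54 and SPRRNA.41 as the divergent copies. Capitals mark bases that differ from SPRRNA.10 in the alignment, and missing bases are not marked. All are given 5′ to 3′ on the transcribed strand, from RefSeq, assembly ASM294v3.
SPRRNA.10, chrI:149658-149776, plus strand: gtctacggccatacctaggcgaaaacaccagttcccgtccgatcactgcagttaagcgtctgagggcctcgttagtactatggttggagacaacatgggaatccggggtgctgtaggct
SPRRNA.40, chrII:2442701-2442819, minus strand: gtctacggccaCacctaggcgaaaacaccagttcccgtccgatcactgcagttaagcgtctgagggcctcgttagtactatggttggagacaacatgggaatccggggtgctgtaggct
SPRRNA.54, chrII:3096968-3097080, minus strand: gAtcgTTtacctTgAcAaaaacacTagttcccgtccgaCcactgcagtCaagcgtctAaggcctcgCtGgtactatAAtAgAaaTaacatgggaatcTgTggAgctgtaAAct
SPRRNA.41, chrII:3171572-3171680, minus strand: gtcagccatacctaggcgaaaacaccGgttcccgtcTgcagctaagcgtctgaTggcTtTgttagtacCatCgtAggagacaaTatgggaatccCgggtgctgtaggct

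No probe lay wholly within a 5S sequence, and 8 of the 136 probes in the windows overlapped one, by at most 53 bases. Each of the 136 probe sequences had a single place in the assembly when up to 6 edits were allowed. The values below are therefore those of the single-copy DNA beside each gene and were not shared between copies. After control spots and flagged spots were left out, 121 probes remained, 2 to 7 for each tested window. No 5S sequence overlapped another annotated gene, and the closest pair of members lay 11.18 kb apart, so no 2 windows shared a probe. Distances to protein-coding genes below are counted from the 5S sequence and not from the annotated ends of the member.

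The 50 bases before the 5S sequence held TATAA or TATAT on the transcribed strand in 24 of 32 genes (75%). The same search found these letters before 72.9% of 155 tRNA genes and before 24.31% of 4364 protein-coding genes, and on either strand the shares were 78.12%, 76.77% and 29.7%. A run of at least 4 T, the usual termination signal of polymerase III, lay in the 20 bases after the 5S sequence in 27 of 32 genes (84.38%), against 93.55% of tRNA genes and 24.91% of protein-coding genes. The upstream 50 bases of the members with the 3 largest gains, of the member with the largest loss and of SPRRNA.35 are shown, with TATAA and TATAT in capitals, since the results below turn on these windows. A match is a description of the letters and not a mapped promoter.
SPRRNA.07, chromosome III, minus strand: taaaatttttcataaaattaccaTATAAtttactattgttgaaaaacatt
SPRRNA.40, chromosome II, minus strand: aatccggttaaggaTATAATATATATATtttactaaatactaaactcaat
SPRRNA.54, chromosome II, minus strand: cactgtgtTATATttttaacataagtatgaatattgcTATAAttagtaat
SPRRNA.39, chromosome II, plus strand: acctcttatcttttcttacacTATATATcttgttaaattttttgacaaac
SPRRNA.35, chromosome II, plus strand: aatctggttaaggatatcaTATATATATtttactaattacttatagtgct

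Before the values, the assignment of arrays to strains has to be stated. The deposited value table gives each array's ratios under its label, and 5 of the 6 scanner files equal one of its columns within 0.001 on the log2 scale. For 4 of them, replicates 1 and 2 of both strains, that column is labelled with the other strain, and the values here follow the value table. The probes of rad3 itself go the same way: of 33 probes, 9, 10 and 9 were at background in both channels on the rad3-deleted arrays, against 0, 0 and 0 on the cdc25-22 arrays. The scanner file listed for cdc25-22 replicate 3 equals no column and was kept under its listed label. The median IP signal was 625, 675 and 583.5 on the rad3-deleted arrays, against 1211, 580 and 669 on the cdc25-22 arrays. At least 84.93% of probes were well above background in each channel of each array.

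Rad52 ratios were above the array median at most dispersed 5S genes. The measure is log2 of IP over input, centred on each array's median, so 0 is the array median and 1 is a ratio 2 times that of the median probe. Over all 6 arrays 24 of the 31 windows were higher than the array median at an adjusted p under 0.05, where 18.4% of 11893 bins of 1 kb were called higher. No window was called lower or had an unadjusted p under 0.05 in that direction (limma), where 13.8% of bins were called lower. The median of the 31 window means was 0.44, against -0.01 for the bins, and only SPRRNA.27 had a mean below 0. On all 6 arrays 18 windows lay above the array median (8.46% of bins), and none lay below it on all 6 (10.4% of bins). With the files kept as listed, 11 windows were called higher (2.39% of bins), at unchanged means.

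Each array showed the shift by itself. The median over the 31 windows was 0.29, 0.52 and 0.51 on the rad3-deleted arrays, against 0.33, 0.34 and 0.58 on the cdc25-22 arrays. The strains overlapped on this measure. Taken by channel, each centred on its array median, the median of the window means was 0.63 for the IP and 0.03 for the input in rad3-deleted, and 0.48 for the IP and 0.11 for the input in cdc25-22; the IP level was above 0 at 24 windows in rad3-deleted and 23 in cdc25-22. For 118 windows of tRNA genes, the other large class of polymerase III genes, the array medians were 0.23, 0.17 and 0.28 in the rad3-deleted strain, against 0.33, 0.27 and 0.47 in the cdc25-22 strain. For 63 windows of snoRNA and snRNA genes they were 0.41, 0.19 and 0.26 in the rad3-deleted strain, against 0.36, 0.13 and 0.33 in the cdc25-22 strain. The raised ratio was thus shared with other classes of small RNA genes, of which 69 tRNA and 40 snoRNA or snRNA windows were called higher over all 6 arrays; whether the classes differ was not tested.

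In the rad3-deleted strain alone 18 of 31 windows were called higher (20.5% of bins), and in the cdc25-22 strain alone 12 were (3.08% of bins). Again no window was called lower in either strain or had an unadjusted p under 0.05 in that direction (limma); 18% of bins were called lower in the rad3-deleted strain and 0.504% in the cdc25-22 strain. The called windows numbered 9 in both strains, 9 past the threshold in the rad3-deleted strain alone, 3 in the cdc25-22 strain alone and 10 in neither. The cdc25-22 count was the less stable one: it was 3 without cdc25-22 replicate 3, 7 without replicate 2, 18 with the replicate number as a block and 21 after quantile normalization. The share of bins called higher moved with it, to 1.15%, 1.18%, 4.29% and 8.85% in these fits, so the changes were not particular to the 5S windows. As listed, limma called 0 windows in either strain (0% of bins), with 18 (rad3-deleted) and 20 (cdc25-22) at an unadjusted p under 0.05.

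The median level of the windows was nearly the same in both strains, 0.40 in rad3-deleted and 0.41 in cdc25-22, but the surrounding genome differed in spread. The 90th percentile of the bins was 0.61 in the rad3-deleted strain, and 10 of the 31 windows lay above it, against 0.26 in the cdc25-22 strain, where 23 windows lay above it. Across the 31 windows Pearson's r was 0.77 to 0.89 between rad3-deleted arrays, 0.60 to 0.70 between cdc25-22 arrays and -0.06 to 0.47 between arrays of different strains. Spearman's rho, on which the 3 highest rad3-deleted windows weigh less, was 0.55 to 0.76 between rad3-deleted arrays, 0.56 to 0.64 between cdc25-22 arrays and -0.018 to 0.56 between strains, so the ranges overlapped. These are correlations across windows that share an array, given as a description.

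**Figure D1:**
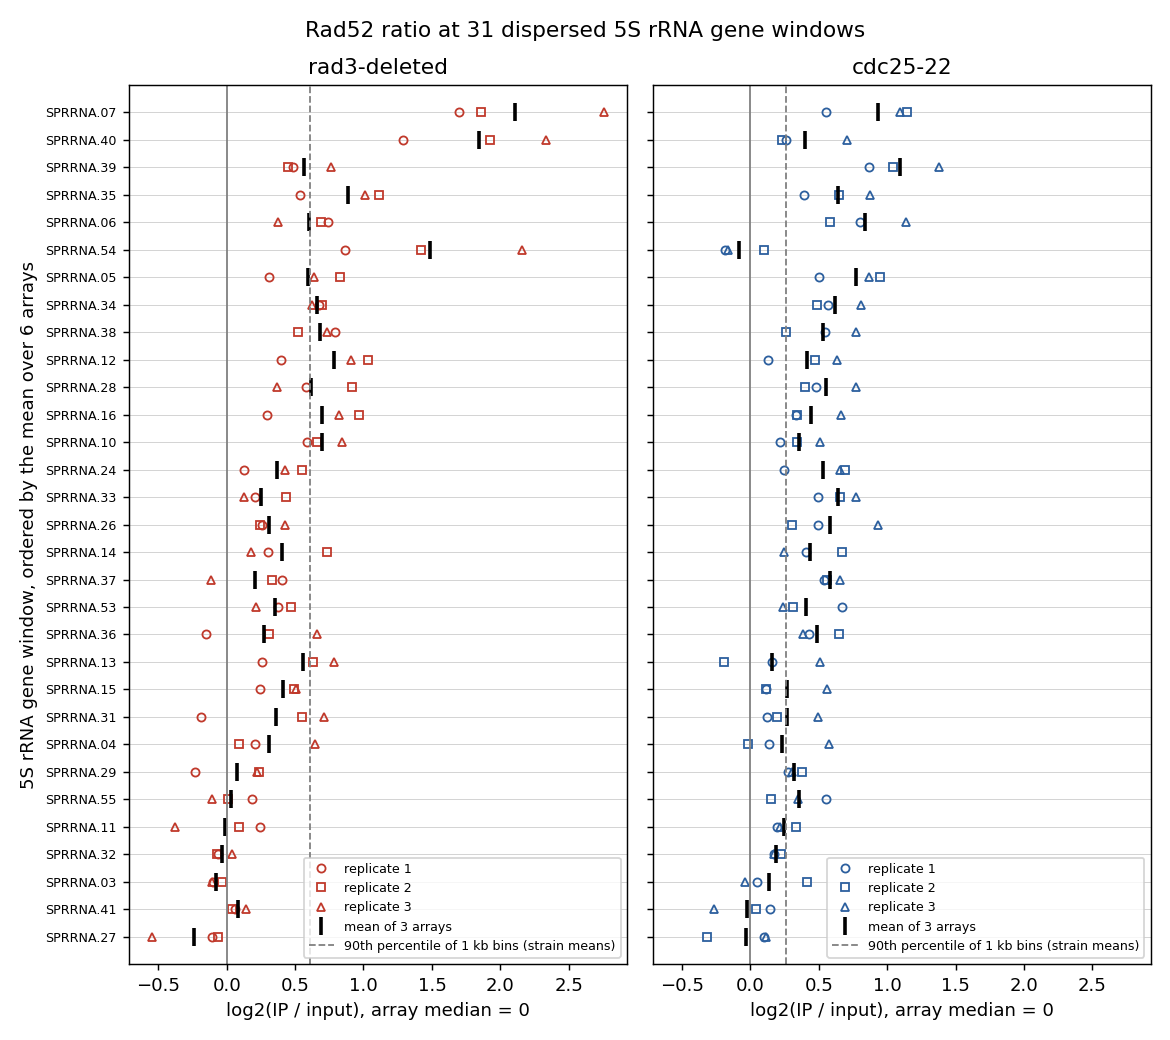
Log2 ratio of Rad52 IP over input (x axis, array median at 0) at the 31 tested 5S windows (rows, ordered by the mean over 6 arrays), with 1 point per array, the mean of 3 arrays as a bar and the 90th percentile of the 1 kb bins as a dashed line; rad3-deleted at left, cdc25-22 at right. SPRRNA.07, SPRRNA.40 and SPRRNA.54 stand out in the rad3-deleted panel with means of 2.10, 1.85 and 1.48, while most other windows lie between 0 and 1 in both panels.

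The mean ratio peaked at the genes. In steps of 250 bp from the gene midpoint, the step just upstream (21 probes) had a mean ratio of 0.75 ± 0.20 in the rad3-deleted strain and 0.87 ± 0.13 in the cdc25-22 strain (SD, n = 3 arrays each). The step just downstream (25 probes) had 0.47 ± 0.07 in rad3-deleted and 0.55 ± 0.08 in cdc25-22. At 250 to 500 bp downstream the mean was 0.55 ± 0.17 in rad3-deleted and 0.38 ± 0.20 in cdc25-22. At 500 to 750 bp it was 0.45 ± 0.24 in rad3-deleted and 0.13 ± 0.18 in cdc25-22. At 750 to 1000 bp downstream the mean was 0.25 ± 0.17 in rad3-deleted and 0.04 ± 0.01 in cdc25-22, and at the same distance upstream it was 0.22 ± 0.13 in rad3-deleted and 0.03 ± 0.02 in cdc25-22. These means include SPRRNA.07, SPRRNA.40 and SPRRNA.54, the highest rad3-deleted windows, which were not set apart. Further out both profiles stayed slightly above the array median, without a clear edge: from 1750 to 2000 bp downstream the mean was 0.18 ± 0.07 in rad3-deleted and 0.18 ± 0.04 in cdc25-22, and at the same distance upstream 0.14 ± 0.08 in rad3-deleted and 0.22 ± 0.11 in cdc25-22.

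Probes that touched an annotated 5S gene read higher than those beside it on all 3 cdc25-22 arrays and on 2 of 3 rad3-deleted arrays. The 11 such probes had a median of 0.67 ± 0.42 in rad3-deleted and 0.95 ± 0.18 in cdc25-22 (SD over arrays, n = 3 each). The 55 upstream probes had 0.40 ± 0.11 in rad3-deleted and 0.35 ± 0.06 in cdc25-22, and the 55 downstream probes had 0.40 ± 0.08 in rad3-deleted and 0.42 ± 0.14 in cdc25-22. Over all probes of a side the medians were close, while in the steps next to the midpoint the upstream one had the higher ratio on all 6 arrays. Both channels were lower just upstream than just downstream, by centred log2 level (SD, n = 3 arrays each). The input was at -0.16 ± 0.19 just upstream and 0.70 ± 0.20 just downstream in rad3-deleted. In cdc25-22 it was at -0.06 ± 0.14 and 0.57 ± 0.22. The IP was at 0.56 ± 0.35 just upstream and 1.145 ± 0.26 just downstream in rad3-deleted. In cdc25-22 it was at 0.79 ± 0.26 and 1.09 ± 0.28. Around the tRNA genes the step just upstream held 0.41 ± 0.08 in rad3-deleted and 0.61 ± 0.19 in cdc25-22, and was again the highest step within 3 kb in both strains.

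**Figure D2:**
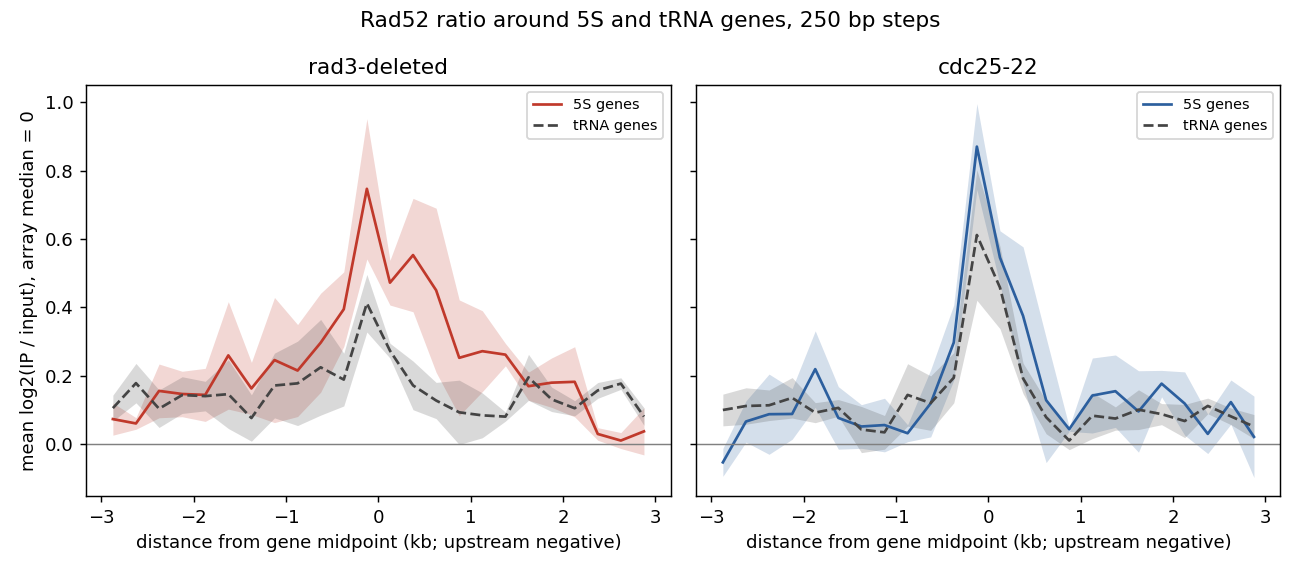
Mean log2 ratio of IP over input (y axis, array median at 0) by distance from the gene midpoint in kb (x axis, upstream negative, steps of 250 bp) for 5S genes (solid) and tRNA genes (dashed); rad3-deleted at left, cdc25-22 at right, shading 1 SD over 3 arrays. Both classes peak in the step just upstream of the midpoint, for 5S genes at 0.75 in rad3-deleted and 0.87 in cdc25-22.

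The highest member was SPRRNA.07, a copy identical to SPRRNA.10 on chromosome III (chrIII:2308122-2308319, minus strand), whose nearest protein-coding gene is dpe2, 309 bp away. Its ratio was 1.70, 1.86 and 2.76 on the rad3-deleted arrays, against 0.55, 1.15 and 1.09 on the cdc25-22 arrays. The ratio was above the array median on every array and the strains did not overlap. The mean over the strains was 1.52 (adjusted p = 2.5e-06, limma). The centred log2 IP level was 0.69, 1.22 and 1.65 in rad3-deleted, against -0.33, -0.31 and 0.11 in cdc25-22, so the raised cdc25-22 ratio went with an input well below the array median, given below.

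SPRRNA.35 (chrII:2322705-2322851, plus strand), 1 edit from SPRRNA.10, had 0.53, 1.12 and 1.01 in the rad3-deleted strain, against 0.39, 0.65 and 0.87 in the cdc25-22 strain. SPRRNA.06 (chrIII:1702123-1702252, plus strand), an identical copy with an asparagine tRNA gene in its window, had 0.74, 0.69 and 0.37 in the rad3-deleted strain, against 0.80, 0.58 and 1.14 in the cdc25-22 strain. Both ratios were above the array median on all 6 arrays and the strains overlapped at both. At SPRRNA.35 the IP level was -0.23, -0.16 and 0.28 in rad3-deleted, against -0.75, -0.64 and 0.13 in cdc25-22, beside input levels of -0.74, -1.29 and -0.67 in rad3-deleted, against -1.12, -1.28 and -0.70 in cdc25-22. At SPRRNA.06 the IP level was 0.04, 0.18 and -0.19 in rad3-deleted, against 0.39, 0.89 and 0.62 in cdc25-22. The input levels there were -0.67, -0.53 and -0.51 in rad3-deleted, against -0.39, 0.31 and -0.48 in cdc25-22. The mean ratios of SPRRNA.35 and SPRRNA.06 were 0.76 (adjusted p = 4.9e-05, limma) and 0.72 (adjusted p = 5.0e-05, limma).

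At the low end, SPRRNA.27 (chrII:1199882-1200066) had -0.11, -0.06 and -0.55 in the rad3-deleted strain, against 0.10, -0.32 and 0.11 in the cdc25-22 strain. SPRRNA.41, the partial and divergent copy, had 0.06, 0.04 and 0.14 in rad3-deleted, against 0.14, 0.04 and -0.26 in cdc25-22. SPRRNA.03 (chrIII:1369974-1370202) had -0.10, -0.03 and -0.11 in rad3-deleted, against 0.05, 0.41 and -0.04 in cdc25-22. None of these was called higher or lower in either strain, and their arrays scatter on both sides of 0. SPRRNA.32 (chrII:1406385-1406824), whose annotation is the longest at 440 bp and which had the most probes, 7, had -0.06, -0.07 and 0.04 in rad3-deleted, against 0.17, 0.23 and 0.17 in cdc25-22. It was also not called in either strain, although its cdc25-22 arrays lay above all its rad3-deleted arrays.

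Of these 4 low windows SPRRNA.27, SPRRNA.03 and SPRRNA.32 hold the sequence of SPRRNA.10 unchanged. In the cdc25-22 strain both divergent copies were among the 3 lowest means, with -0.083 at SPRRNA.54, -0.034 at SPRRNA.27 and -0.025 at SPRRNA.41. Among the 20 tested copies identical to SPRRNA.10, 15 were called higher over all 6 arrays, and among the 9 tested copies with 1 to 3 edits 8 were; of the 2 divergent copies SPRRNA.54 was called and SPRRNA.41 was not. By chromosome the counts were 7 of 8 on chromosome I, 11 of 15 on chromosome II and 6 of 8 on chromosome III. With TATAA or TATAT upstream 18 of 23 were called, and without it 6 of 8. None of these splits was tested. SPRRNA.03 and SPRRNA.04 share the 138 bases before and the 23 bases after the 5S sequence, and the pair was not compared by a test. SPRRNA.04 had 0.20, 0.09 and 0.64 in rad3-deleted, against 0.13, -0.02 and 0.58 in cdc25-22, above SPRRNA.03 on 5 of 6 arrays. It was called over all 6 arrays (adjusted p = 0.041, limma) but in neither strain alone, and the call was lost without rad3-deleted replicate 3 (adjusted p = 0.15, limma), without cdc25-22 replicate 1 (adjusted p = 0.069, limma) and without cdc25-22 replicate 3 (adjusted p = 0.17, limma).

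Members with a tRNA gene in the window held much of the cdc25-22 count. All 6 such windows were called in the cdc25-22 strain, with means of 0.53 to 1.10, against 6 of the 25 others. In the rad3-deleted strain 4 of these 6 were called, with means of 0.25 to 0.68, and 14 of the 25 others. The median of the 6 was 0.58 in rad3-deleted and 0.61 in cdc25-22, and that of the 25 was 0.37 in rad3-deleted and 0.36 in cdc25-22. The 5S and the tRNA gene of such a window cannot be told apart with these probes. Without the 6 windows the calls were 18 of 25 over all 6 arrays (18.4% of bins) and 6 in the cdc25-22 strain (3.07% of bins).

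Between the strains 3 windows were higher and 1 was lower in rad3-deleted than in cdc25-22 (11.8% and 3.43% of bins), so the shares of members were near those of the genome. The median difference was -0.04, against -0.05 over the bins, and 15 of 31 differences were above 0. All rad3-deleted arrays lay above all cdc25-22 arrays at 4 windows (18.7% of bins), SPRRNA.07, SPRRNA.40, SPRRNA.54 and SPRRNA.10, and below them at 5 (17.4% of bins), SPRRNA.39, SPRRNA.33, SPRRNA.37, SPRRNA.29 and SPRRNA.32. For a single window an exact permutation test of 3 arrays against 3 cannot give a two-sided p below 0.1, so the calls rest on the spread that limma shares across the genome. As listed, limma called 0 windows (0% of bins), and 0 windows had an unadjusted p under 0.05.

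**Figure D3:**
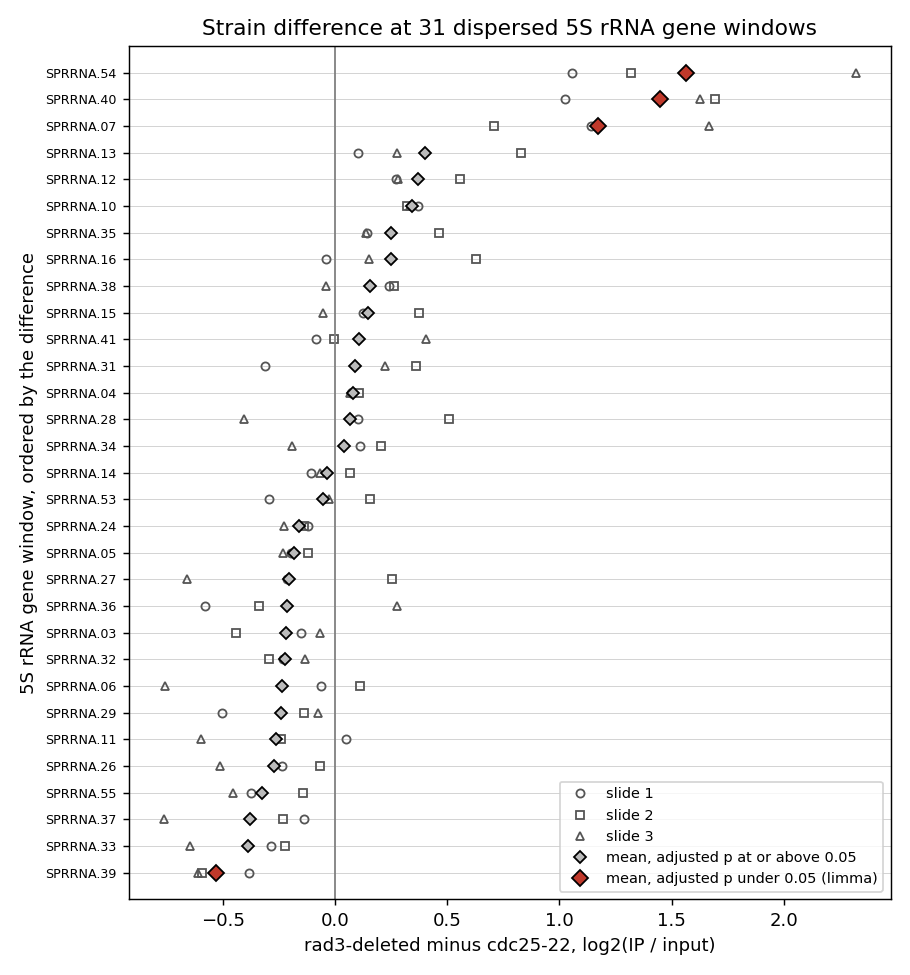
Difference in log2 ratio of IP over input, rad3-deleted minus cdc25-22 (x axis), at the 31 tested 5S windows (rows, ordered by the difference); open symbols are the 3 slides, each holding 1 array of each strain, and diamonds their mean, red where the adjusted p was under 0.05. SPRRNA.54, SPRRNA.40 and SPRRNA.07 lie apart at 1.57, 1.45 and 1.17, and the other 28 windows lie between -0.53 and 0.40.

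The largest difference was at SPRRNA.54 (chrII:3096968-3097078, minus strand), the more divergent of the 2 degenerate copies, 626 bp from zuo1, which encodes a ribosome-associated chaperone of the zuotin family. It had 0.87, 1.42 and 2.16 on the rad3-deleted arrays, against -0.19, 0.10 and -0.16 on the cdc25-22 arrays. It was thus near the array median in the cdc25-22 strain (adjusted p = 0.84, limma) and far above it in every rad3-deleted array. The difference was 1.57 ± 0.25 (SE; adjusted p = 0.00057, limma). Its input also read higher in the rad3-deleted strain: the centred log2 input level was 0.78, 0.86 and 0.75, against 0.33, 0.56 and 0.36 in the cdc25-22 strain, while the IP level was 1.62, 2.30 and 2.85, against 0.12, 0.65 and 0.16.

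SPRRNA.40 (chrII:2442700-2442852, minus strand) lies 70 bp from ucp3 and had 1.29, 1.92 and 2.34 on the rad3-deleted arrays, against 0.26, 0.23 and 0.71 on the cdc25-22 arrays. The strains did not overlap, and the difference was 1.45 ± 0.23 (SE; adjusted p = 0.00056, limma). SPRRNA.07, described above, differed by 1.17 ± 0.25 (SE; adjusted p = 0.0045, limma). At both genes the cdc25-22 arrays were above the array median as well, though SPRRNA.40 was not called in that strain (adjusted p = 0.19, limma). Input levels did not separate the strains at these genes: for SPRRNA.40 they were -0.02, -0.35 and -0.41 in rad3-deleted, against -0.26, 0.03 and -0.66 in cdc25-22, and for SPRRNA.07 they were -0.97, -0.65 and -1.05 in rad3-deleted, against -0.86, -1.46 and -0.94 in cdc25-22. The 3 gains were called in every fit that left out 1 array.

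The next largest difference, at SPRRNA.13 (chrI:2976790-2976979), was not called: it had 0.26, 0.63 and 0.79 in rad3-deleted, against 0.16, -0.20 and 0.51 in cdc25-22, a difference of 0.40 ± 0.20 (SE; adjusted p = 0.18, limma). The strains overlapped there. This result depended on the choice of probes. With only probes well above background in both channels on every array, the difference was 0.62 and was called (adjusted p = 0.046, limma). It was 0.03 within 250 bp and 0.17 with the median over probes. In the main fit the difference at SPRRNA.13 lay well below that at SPRRNA.07, the smallest of the 3 called gains.

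The gains at the 3 windows were wider than the genes. Around SPRRNA.07 the rad3-deleted minus cdc25-22 difference was at least 1.04 in each 1 kb step from 3 kb upstream to the gene, with 1.42 in the step next to it and 0.86 just downstream, and it stayed above 0 in all 20 steps within 10 kb. Around SPRRNA.40 it reached 1.76 at 1 to 2 kb upstream and was 1.39 just downstream, with 1 probe in the step between, and around SPRRNA.54 it reached 1.52 just upstream and 1.44 just downstream. The largest step was thus beside the gene for SPRRNA.07 and SPRRNA.54 and one step further upstream for SPRRNA.40. In the cdc25-22 strain SPRRNA.07 had a narrow rise to 1.18 just downstream, with 0.60, 1.84 and 1.11 on its arrays. SPRRNA.40 had 0.70 just upstream, in the step of 1 probe, and 0.27 just downstream. The steps next to these rises lay between -0.11 and 0.46. SPRRNA.54 had no rise, with -0.03 and -0.17 in the steps beside it.

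**Figure D4:**
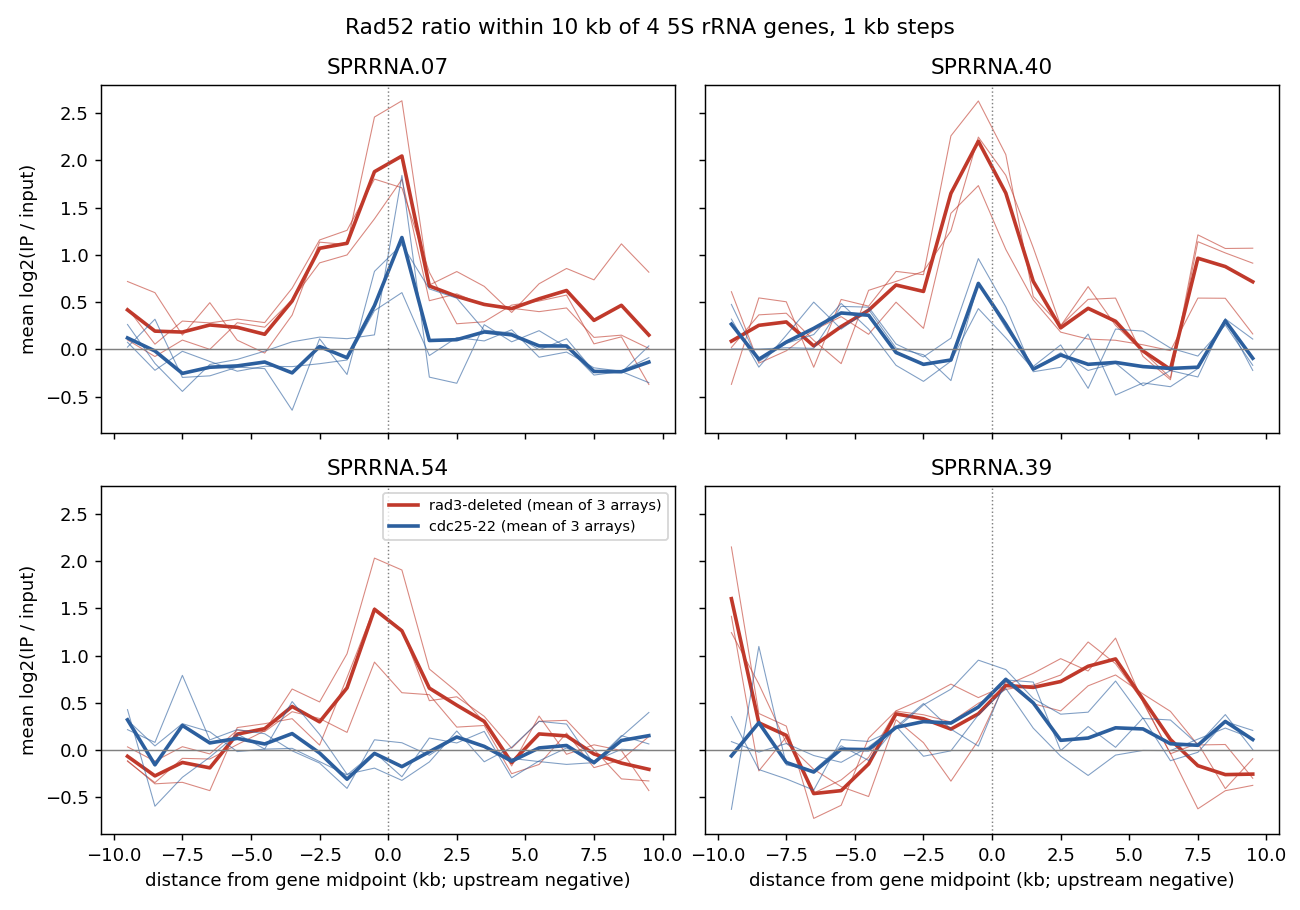
Mean log2 ratio of IP over input (y axis) in 1 kb steps by distance from the gene midpoint in kb (x axis, upstream negative) for SPRRNA.07, SPRRNA.40, SPRRNA.54 and SPRRNA.39; thin lines are single arrays, thick lines the mean of 3, rad3-deleted in red and cdc25-22 in blue. At the first 3 genes the rad3-deleted mean peaks beside the gene at 2.04, 2.20 (a step of 1 probe) and 1.49. At SPRRNA.39 the strains nearly meet beside the gene, with 0.68 in rad3-deleted and 0.75 in cdc25-22 just downstream.

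The single called loss, SPRRNA.39 (chrII:2032410-2032528, plus strand), is an identical copy with an asparagine tRNA gene in its window and lies 314 bp from qcr1. It had 0.48, 0.45 and 0.76 on the rad3-deleted arrays, against 0.87, 1.04 and 1.38 on the cdc25-22 arrays. Its cdc25-22 mean was the highest of the 31 windows, although SPRRNA.07 was higher on cdc25-22 replicate 2. All 6 arrays were above the array median, and the strains did not overlap. The difference was -0.53 ± 0.17 (SE; adjusted p = 0.048, limma), and over its alternatives the adjusted p ran from 0.00061 to 1. The call was lost without each of 5 arrays in turn (adjusted p 0.055 to 0.16) and with probes out to 1000 bp, where the difference was -0.05. The IP level was 0.90, 1.44 and 1.42 in rad3-deleted, against 1.45, 1.78 and 1.63 in cdc25-22, and the input levels overlapped. From 2 to 5 kb downstream the rad3-deleted strain was instead higher, by 0.62 to 0.76 in each 1 kb step.

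The next most negative differences were at SPRRNA.33 (chrII:1504332-1504498), which has a threonine tRNA gene in its window, and SPRRNA.37 (chrII:4161556-4161775). SPRRNA.33 had 0.21, 0.43 and 0.12 in rad3-deleted, against 0.49, 0.66 and 0.77 in cdc25-22, and SPRRNA.37 had 0.40, 0.33 and -0.11 in rad3-deleted, against 0.54, 0.56 and 0.65 in cdc25-22. Their arrays did not overlap between the strains, but the differences of -0.39 and -0.38 were not called (adjusted p = 0.11 and 0.13, limma). After quantile normalization, which gives all arrays 1 distribution, both were called. The counts between the strains were then 3 higher and 5 lower (10.3% and 5.3% of bins).

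SPRRNA.07 and SPRRNA.40 each overlap an A+T-rich stretch, defined as 500 bp windows with at least 75% A+T, and SPRRNA.54 lies 173 bp from one. Of the 31 windows 10 lay within 1 kb of such a stretch. Their median difference was 0.06, with a range of -0.32 to 1.57 and 5 above 0, against -0.06 for the other 21, with a range of -0.53 to 0.40 and 10 above 0. All 3 called gains were within 1 kb of a stretch, as were 7 windows with no call between the strains, and the split was made after the values were seen. Across the 31 windows the A+T share and the difference had r = 0.42 and Spearman's rho = 0.35, a description over windows that share arrays and whose base composition can also act on hybridisation. With the G+C trend of the probes removed, all 4 calls between the strains remained.

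The genes whose products make or carry 5S rRNA were looked up as a pathway list of 37 symbols, of which 31 matched the annotation and 27 had enough probes. Values over these genes describe Rad52 on their DNA, not their expression. Between the strains 2 were higher and 4 lower in rad3-deleted, where 10.5% and 5.24% of 4124 protein-coding genes were, with a median difference of -0.07 in the list and -0.06 over all genes. Over all 6 arrays 3 were higher and 5 lower than the array median (17.3% and 15.1% of genes), and in the rad3-deleted strain alone 5 were higher and 9 lower (19.5% and 21.1% of genes). In the cdc25-22 strain limma called 0 in either direction (2.01% and 0.267% of genes), with 4 at an unadjusted p under 0.05. As listed, limma called 0 between the strains, and 0 had an unadjusted p under 0.05.

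The highest difference in the list was at sfc6, which encodes a TFIIIC subunit: 0.57, 0.70 and 0.87 in rad3-deleted, against -0.04, -0.03 and 0.22 in cdc25-22, a difference of 0.66 (adjusted p = 0.0052, limma). Next was brf1, which encodes the TFIIB-related subunit of TFIIIB, with 0.29, 0.57 and 0.67 in rad3-deleted, against 0.06, 0.18 and -0.11 in cdc25-22, a difference of 0.47 (adjusted p = 0.034, limma). The strains did not overlap at either gene. The third, rpc11, for the polymerase III subunit of RNA cleavage, differed by 0.42 and was not called (adjusted p = 0.075, limma).

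The lowest difference was at rpl1101, for a ribosomal protein of the 5S particle, at -0.53, and it was not called (adjusted p = 0.12, limma). It was lower at maf1, for the repressor of polymerase III, which had 0.05, -0.29 and -0.22 in rad3-deleted, against 0.25, 0.32 and 0.27 in cdc25-22, a difference of -0.43 (adjusted p = 0.033, limma). At sfc1, for another TFIIIC subunit, the values were -0.35, -0.44 and -0.61 in rad3-deleted, against -0.12, 0.17 and -0.18 in cdc25-22, a difference of -0.42 (adjusted p = 0.047, limma). The other called losses were sfc3 (TFIIIC) at -0.35 and rpc37 (polymerase III) at -0.39, named after their values were seen because they complete the count. With the replicate number as a block sfc3 was not called (adjusted p = 0.053, limma). Genes of TFIIIC thus stood on both sides of the count.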

How the data were processed

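Per the labels, each array set Rad52 IP (green dye) against input DNA (red dye). The submitters' processing notes name Agilent Feature Extraction 10.7.3.1. The scanner files give intensity per spot, and per the file headers the processed intensity used here had already been corrected by the authors for background and dye. The headers name a CGH protocol for replicates 1 and 2 of both strains and a ChIP protocol for replicate 3 of both. The protocol thus goes with the replicate number, and its effect on the values was not tested. They also hold a deposited LogRatio, on a log10 scale, and the separate value table is a deposited ratio of IP over input on a linear scale. The array design rests on a genome version of 2002, per the file headers; probe positions were within 1 bp of ASM294v3 in the 50 kb segments of all 32 members.

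Log2 of green over red processed signal was centred on each array's median over 40045 of 42641 nuclear probes. The 5.99% flagged on any array were left out, as were probes within 1 kb of rad3. Most flags came from cdc25-22 replicate 3, with 5.01% of probes, against at most 1.23% on each other array. Window means entered limma 3.58.1 (R 4.3.3) with a mean per strain, adjusted by Benjamini-Hochberg over 12105 features (11893 bins of 1 kb and the windows of 5S, tRNA and snoRNA or snRNA genes). The fit was tested on simulated data with noise drawn independently for each array, which cannot show how it fares where arrays share a slide. Pathway genes were fitted with all protein-coding genes. Same-numbered arrays share a slide per the file headers, and their deviations from the strain means correlated at 0.28, 0.20 and 0.18 over features (other pairs -0.21 to -0.05), so numbers pair the arrays. Named windows are the 6 highest and 4 lowest means, the 4 largest and 3 smallest differences and, of the pathway list, the 3 highest and 3 lowest differences. The members and lists were chosen with earlier results of these data known. The number of arrays limits the precision.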

Additional observations from a re-analysis of the deposited data

Results flagged for a closer look

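The value-table column labelled cdc25-22 replicate 3 equals none of the scanner files and entered only the alternative fit on the value table. It stands out because it carries a signal at the 5S genes in data outside the main measurement: its median over the 31 windows was 0.48 after centring, with 28 windows above the array median, against -0.02 for its 1 kb bins. The scanner file listed under the same label had a median of 0.58 and also 28 windows above the array median. Which array the column came from is not known, so it cannot be counted as a further replicate. Across the 31 windows the column and the file had r = 0.59, where different cdc25-22 arrays had 0.60 to 0.70, a description over 1 set of windows.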

How the results depend on the processing

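With the scanner files as listed, the counts were 11 (all 6 arrays), 0 (rad3-deleted), 0 (cdc25-22) and 0 (difference). The shares of bins called higher were 2.39%, 0%, 0% and 0%. The pathway count was 0, and the differences turned to -0.017 at SPRRNA.54, -0.36 at SPRRNA.40, -0.061 at SPRRNA.07, -0.22 at SPRRNA.13 and 0.12 at SPRRNA.39. The count over all 6 arrays was 15 of 19 with at least 4 probes (18.5% of bins), and its median was 0.30 within 1000 bp. The rad3-deleted median was 0.54 within 250 bp and 0.59 with at least 4 probes. The cdc25-22 count was 6 from the value table, 5 after normexp, 21 after quantile normalization, 21 with 1 MAD for all arrays, 4 within 1000 bp, 6 without windows that hold another small RNA gene and 6 at an adjusted p under 0.01. In the same order 1.24%, 1.09%, 8.85%, 7.54%, 2.99%, 3.07% and 1.21% of bins were called higher. The cdc25-22 median was 0.57 after quantile normalization and 0.65 within 250 bp. The difference count was 8 after quantile normalization (10.3% of bins higher and 5.3% lower). It was 2 with at least 4 probes (13% of bins higher and 4.5% lower). The median difference was -0.24 after quantile normalization, -0.18 with 1 MAD and -0.20 within 250 bp. Fewer windows were tested within 250 bp, with at least 4 probes and without other small RNA genes; otherwise the cause was not tested.

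Leaving out 1 array at a time gave 21 to 25 (all), 13 to 19 (rad3-deleted), 3 to 15 (cdc25-22) and 3 to 4 (difference), with medians of 0.40 to 0.48, 0.38 to 0.50, 0.35 to 0.47 and -0.11 to 0.02. The share of bins called higher ran from 13.9% to 19% (all), 14.9% to 20.5% (rad3-deleted), 0.95% to 4.04% (cdc25-22) and 8.23% to 14.5% (difference). With the replicate block the counts were 26, 21, 18 and 4 with every 5S call kept, and 5 pathway genes differed, without sfc3. The shares of bins called higher were 21%, 22.7%, 4.29% and 14.2%. The block takes the spread between slides out of the error. Against the array median, kept or added calls therefore cannot show that a ratio holds across slides. Only the difference between the strains is a comparison within slides. Of the 5S windows named above, the block added calls for SPRRNA.04 in rad3-deleted, SPRRNA.10 in cdc25-22 and SPRRNA.29 over all 6 arrays. Spots flagged as outliers were kept in an alternative chosen after seeing the data, with 24 of 32 windows called higher over all 6 arrays (18.5% of bins).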
